A study of Gallus gallus with 4 samples.

Results

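The genes described here encode the proteins of the cytosolic ribosome, measured in chick neural retina cultures with and without DAPT, an inhibitor of γ-secretase. They were chosen by name: every probe apart from controls whose RefSeq transcript belongs to a chicken gene with a symbol starting RPL or RPS, followed by a digit or by P, A or X. RPS6 kinase genes (3 on the array) and 6 paralogues whose names end in L or L with a digit were left out. The rule gave 45 genes with 90 probes, of 67 chicken genes with such a symbol in the RefSeq table and of 5382 genes that could be named on the array. The remaining 22 were not analysed here. For each gene the probe with the highest mean signal was used. Of the 45 genes, 16 encode proteins of the small (40S) subunit and 28 of the large (60S) subunit. RPS19BP1 was taken in by its name alone and encodes a nucleolar protein that binds RPS19, so it is described apart from the 44 subunit genes. The choice used names and the mean signal over all 4 arrays, not the difference between groups.

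The small subunit reads the mRNA and the large subunit joins the amino acids, and both are assembled in the nucleolus from ribosomal RNA and a single copy of most proteins. The mRNAs of the ribosomal proteins are abundant in nearly every cell type. Because the proteins are needed in fixed proportion, these mRNAs tend to be regulated together. In vertebrates these mRNAs begin with a terminal oligopyrimidine (TOP) tract, through which mTORC1 controls their translation, and ribosome production as a whole rises with growth and proliferation.

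Retinas of embryonic day 8 (stage 33) chicks were dissociated with trypsin and cultured in medium with fetal bovine serum. One group of 2 cultures received 10 µM DAPT dissolved in DMSO from culture day 2, and the control group of 2 cultures received the same volume of DMSO alone. γ-Secretase cuts the Notch receptor and other membrane proteins, so the inhibitor does not act on Notch alone. Medium and agent were renewed every 2 days and RNA was taken on day 12. Each culture was hybridised to 1 one-colour array, and the replicate 1 arrays of both groups lay on one slide and the replicate 2 arrays on another. The labels do not say whether replicates came from separate embryos or platings, so the p-values here speak only to the spread among these 4 samples, part of which may be technical. In such bulk RNA, fewer cells of a type and less RNA per cell cannot be told apart. Array signals have no read depth, and the number of arrays limits the precision.

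Ribosomal protein genes lay slightly higher in the DAPT cultures, and they did so together. The median difference over the 45 genes was 0.34 on the log2 scale, a 1.27-fold higher signal. Of them 44 (97.8%) were above 0, against 56.9% of all features tested and 67.1% of the brightest 10% of features. The exception was RPS19BP1. The size depended on the scaling of the arrays: the median was 0.11 with quantile normalisation and 0.13 with cyclic loess, and under either 0 genes passed the test. The subunit genes ranged from 1.07-fold for RPLP1 to 1.43-fold for RPL37A, and 0 of the 45 reached 1.5-fold, where 9.94% of all features were at least 1.5-fold higher and passed the test described below. The summed signal of the subunit genes made up 4.40% and 4.65% of all feature signal in the DMSO cultures and 5.22% and 5.44% in the DAPT cultures, so both DAPT values lay above both DMSO values. All levels are log2 processed signal relative to the 75th percentile of the array, and all differences are DAPT minus DMSO on that scale, with the SE from limma and n = 2 arrays per group.

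A like difference was seen on either slide. The median over the 45 genes was 0.38 within slide 1 and 0.36 within slide 2, and the same 44 genes were above 0 on both. In 42 of 45 genes (93.3%) both DAPT arrays lay above both DMSO arrays, against 36.9% of all 32291 features tested and 51.6% of the brightest 10% of features. The difference between group means exceeded both gaps between replicates in 41 genes. Replicate 2 lay above replicate 1 in 40 genes in DMSO and in 38 genes in DAPT, by a median of 0.15 and 0.09. The genes thus also shifted together between the slides, by less than between the groups.

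**Figure D1:**
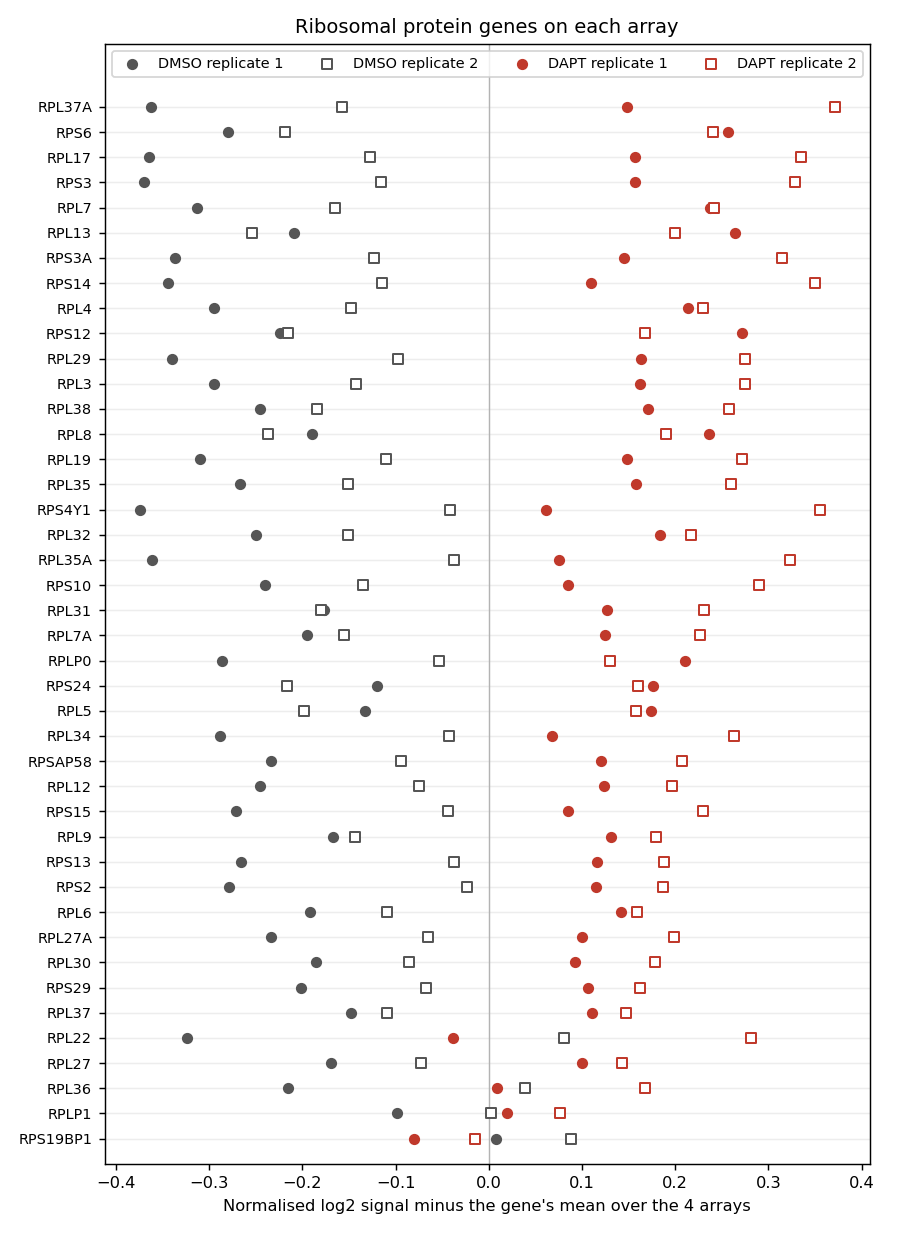
Level of each ribosomal protein gene named in the text on the 4 arrays, drawn as the normalised log2 signal minus the mean of that gene over the arrays (x axis), 1 gene per line, sorted by the difference between groups. Grey marks are DMSO and red marks DAPT arrays, with circles for replicate 1 and squares for replicate 2. Both red marks lie right of both grey marks except in RPL22 and RPL36, where they overlap, and in RPS19BP1 at the bottom, where the order turns round.

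Few of these differences passed the test across all features. At an adjusted p under 0.05 in limma, 6 of the 45 genes (13.3%) were higher and 0 lower, where 12.4% of all features were higher and 13.1% lower. Of the brightest 10% of features 14.5% were higher and 10.5% lower. The share of ribosomal protein genes that passed was thus near the background, although at an unadjusted p under 0.05 it was 27 genes (60%) against 20.5% of features. The share of the brightest 10% of features at that unadjusted threshold was not computed. With the slide as a replicate block, which removes the shift shared by the arrays of a slide, 30 genes (66.7%) were higher and 0 lower, against 21.2% of all features and 28% of the brightest 10%. Leaving out any one of the 4 arrays left 0 genes past the threshold, with between 0 and 29 genes higher at an unadjusted p under 0.05.

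The genes of the 2 subunits had like medians. The 16 genes of the 40S subunit had a median of 0.34, between 0.27 and 0.50, and the DAPT arrays lay above the DMSO arrays in all 16. The 28 genes of the 60S subunit had a median of 0.35, between 0.10 and 0.52, and the arrays did not overlap in 26. Over all features 36.9% had both DAPT arrays above both DMSO arrays. In limma 2 of the 40S genes and 4 of the 60S genes passed, near the 12.4% of all features that were higher. With the replicate block 11 and 19 passed, against 21.2% of all features. No test of the difference between the subunits was made.

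Among the small subunit genes RPS6 and RPS12 rose. RPS6, the protein phosphorylated by the S6 kinases when mTORC1 is active, was at 5.89 and 5.95 in DMSO and at 6.43 and 6.41 in DAPT. Both DAPT arrays lay well clear of both DMSO arrays, and the difference of 0.50 ± 0.10 passed in limma (adjusted p = 0.0299). RPS12, a protein of the beak of the subunit, was at 6.34 and 6.35 in DMSO and at 6.83 and 6.73 in DAPT. Its replicates in DMSO were nearly identical and its difference was 0.44 ± 0.10 (limma adjusted p = 0.0454). The difference of RPS12 was 0.50 within slide 1 and 0.38 within slide 2.

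RPS3, which lies at the channel where mRNA enters, was at 5.18 and 5.43 in DMSO and at 5.71 and 5.88 in DAPT. Replicate 2 was the higher one in each group, and the difference of 0.49 ± 0.14 did not pass in limma (adjusted p = 0.0755) but did with the replicate block (adjusted p = 0.0178). RPS2, its neighbour at the entry channel, differed by 0.30, and RPS3A, on the solvent side, by 0.46. In the head of the subunit RPS10 differed by 0.37, RPS15 by 0.32 and the zinc-binding RPS29 by 0.27. The gene listed as RPSAP58, which has RPSA among its synonyms, differed by 0.33. RPSA is known outside the ribosome as a laminin receptor. In the body RPS24 differed by 0.34. The gene listed as RPS4Y1, with RPS4X among its synonyms, differed by 0.42. On the platform RPS13 differed by 0.30 and RPS14 by 0.46. None of the genes in this paragraph passed without the block, and RPS2, RPS13 and RPS29 did not pass with it either. The differences in this paragraph ran from 0.27 for RPS29 to 0.49 for RPS3.

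Among the large subunit genes RPL7, RPL8, RPL13 and RPL38 rose. RPL8, which lies near the peptidyl transferase centre where amino acids are joined, was at 6.69 and 6.65 in DMSO and at 7.12 and 7.07 in DAPT. The difference of 0.43 ± 0.10 (limma adjusted p = 0.0446) was the same on both slides, 0.43 within slide 1 and 0.43 within slide 2. RPL13, a solvent-side protein, was at 6.40 and 6.36 in DMSO and at 6.88 and 6.81 in DAPT and differed by 0.46 ± 0.10 (limma adjusted p = 0.037). In both RPL8 and RPL13 replicate 1 was the higher one, against the direction of most of the other genes.

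RPL7, also a solvent-side protein, was at 4.80 and 4.95 in DMSO and at 5.35 and 5.36 in DAPT and differed by 0.48 ± 0.11 (limma adjusted p = 0.0419). RPL38, whose loss in mice impairs the translation of Hox mRNAs, was at 6.40 and 6.46 in DMSO and at 6.81 and 6.90 in DAPT, with a difference of 0.43 ± 0.10 (limma adjusted p = 0.048). In both genes all DAPT values lay above all DMSO values. RPL37A, a zinc-binding protein with the largest difference of all 45 genes, was at 3.69 and 3.90 in DMSO and at 4.20 and 4.43 in DAPT. Its difference of 0.52 ± 0.14 did not pass in limma (adjusted p = 0.0633), with replicates that lay farther apart than those of RPL7, and passed with the replicate block (adjusted p = 0.014). RPL17, at the exit tunnel for the growing peptide, was at 6.08 and 6.31 in DMSO and at 6.60 and 6.78 in DAPT, a difference of 0.49 ± 0.14 (limma adjusted p = 0.0703, and 0.0165 with the block). Its 4 values were ordered in the same way as those of RPL37A.

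The genes of the other proteins near the catalytic centre and the exit tunnel differed by 0.26 to 0.44. RPL3, by the peptidyl transferase centre, differed by 0.44. RPL4, which lines the tunnel, differed by 0.44, RPL19 by 0.42 and RPL37 by 0.26. RPL31 and RPL35, on the rim of the tunnel, differed by 0.36 and 0.42. RPL5 belongs to the particle of the smallest ribosomal RNA and, when free, binds the p53 regulator MDM2 in mammals. It differed by 0.33. Of the solvent-side and bridge proteins RPL6 differed by 0.30, RPL27A by 0.30, RPL29 by 0.44 and RPL30 by 0.27. RPL32 differed by 0.40, RPL34 by 0.33 and RPL35A by 0.40. RPL7A, another solvent-side protein with one of the brightest probes, was at 7.06 and 7.10 in DMSO and at 7.38 and 7.48 in DAPT, without overlap, a difference of 0.35 ± 0.10 (limma adjusted p = 0.0785). None of these passed without the block, and RPL6, RPL27A, RPL30 and RPL37 did not pass with it either.

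The stalk, which recruits the GTPases of translation, held the smallest subunit difference. RPLP1 was at 7.46 and 7.56 in DMSO and at 7.58 and 7.64 in DAPT, a difference of 0.10 ± 0.11 (limma adjusted p = 0.564). The lowest DAPT value lay only 0.018 above the highest DMSO value. Before scaling the processed signal of its probe was nearly the same on all arrays. It was 282838 and 282076 in the DMSO cultures against 283724 and 281179 in the DAPT cultures. No spot carried a saturation flag, and the lowest saturation value of the 4 arrays was 777958. Why RPLP1 differed least among the subunit genes was not tested. The other 2 probes of RPLP1 gave 0.11 and 0.12. RPLP0, which anchors the stalk, differed by 0.34, with 0.50 within slide 1 and 0.18 within slide 2, the widest gap between slides of all 45 genes. RPL12 at the stalk base differed by 0.32 and RPL9, near it, by 0.31.

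Besides RPLP1, RPL22, RPL27 and RPL36 made up the low end of the subunit genes. RPL36, a solvent-side protein, was at 6.34 and 6.60 in DMSO and at 6.57 and 6.73 in DAPT, so the DAPT replicate 1 value lay below the DMSO replicate 2 value. Its difference was 0.18 ± 0.14 (limma adjusted p = 0.426). RPL22, an RNA-binding protein that ribosomes can do without, was at 4.58 and 4.98 in DMSO and at 4.87 and 5.18 in DAPT. Here too the groups overlapped, and the difference of 0.24 ± 0.20 carried the largest SE of all 45 genes (limma adjusted p = 0.44). RPL27 was at 6.50 and 6.60 in DMSO and at 6.77 and 6.81 in DAPT, without overlap, and differed by 0.24 ± 0.10 (limma adjusted p = 0.17). RPS19BP1, the one gene that encodes no subunit protein, was at 2.32 and 2.40 in DMSO and at 2.23 and 2.30 in DAPT. Both DAPT values lay below both DMSO values, and the difference of -0.10 ± 0.10 did not pass (limma adjusted p = 0.563, unadjusted p = 0.405).

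**Figure D2:**
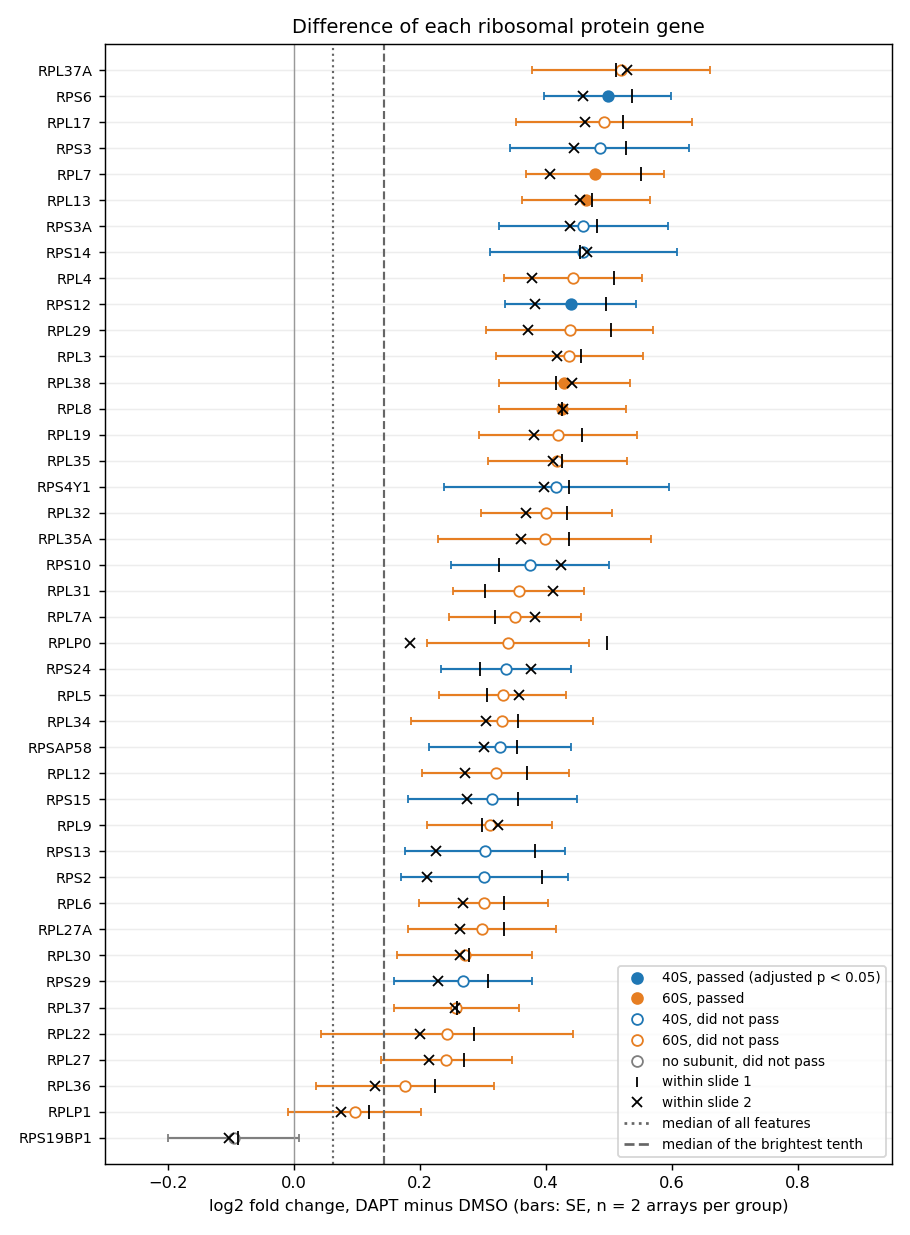
Difference of each gene named in the text between DAPT and DMSO (x axis, log2 fold change), sorted, with bars for the SE from limma (n = 2 arrays per group) and black marks for the values within slide 1 and slide 2. Blue genes belong to the 40S and orange genes to the 60S subunit, filled circles passed at an adjusted p under 0.05, and vertical lines give the median of all features (0.06) and of the brightest 10% of features (0.14). The 6 filled circles lie between 0.43 and 0.50, and all subunit genes drawn but RPLP1 lie right of the dashed line.

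Different probes of a gene mostly gave the same value. In the 30 genes with more than 1 probe, the probes of a gene lay a median of 0.05 apart, and 88 of all 90 probes were above 0. The 2 probes below 0 were those of RPS19BP1. The 45 probes that were not used had a median difference of 0.37. A few probes far dimmer than the one used still gave a like difference, such as the dimmest probes of RPS12 (0.52) and RPL35A (0.36). Others did not. The dimmest of 3 RPS14 probes was at 0.09 against 0.46 for the probe used, and the second RPL31 probe was at 0.03 against 0.36.

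**Figure D3:**
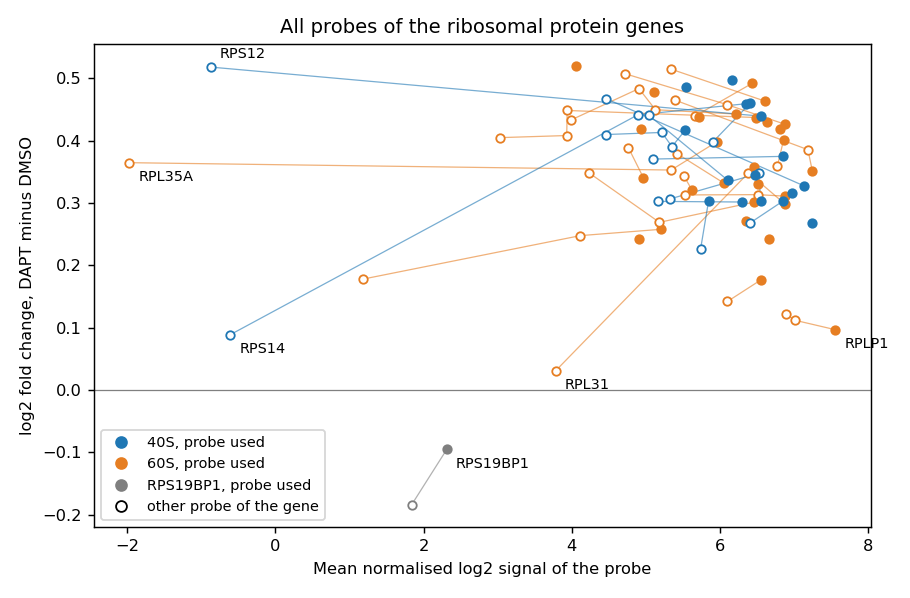
Difference (y axis, log2 fold change) of all 90 probes against their mean normalised log2 signal (x axis), with lines joining the probes of a gene. Filled circles are the probes used and open circles the others. Probes of a gene lie mostly at the same height, with RPS14 and RPL31 as the widest exceptions and both RPS19BP1 probes below 0.

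All 45 genes belonged to the brightest 10% of features, and bright features as a class also lay higher in DAPT. The median difference was 0.06 over all features and 0.14 over the brightest 10%. Over the 774 features at least as bright as the dimmest subunit gene, which include the 44 subunit genes themselves, it was 0.23. Of these 774 features 15.2% passed as higher. The median of the ribosomal protein genes was exceeded by 22.5% of all features, by 25.4% of the brightest 10% and by 29.8% of those 774. Within the 44 subunit genes the difference did not grow with brightness (Spearman rho = -0.28). The medians were 0.34 in the 22 genes with the brighter probes and 0.41 in the other 22. All 44 lie in the brightest 10%, so these medians do not bear on the trend over all features.

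**Figure D4:**
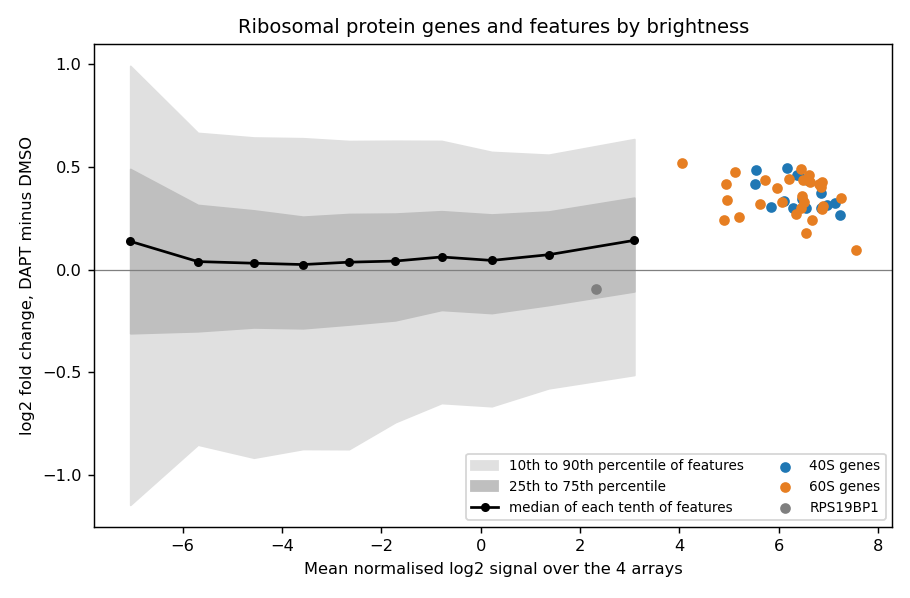
Difference between DAPT and DMSO (y axis, log2 fold change) against mean normalised log2 signal (x axis). The black line is the median of all features in 10 equal classes of brightness, the grey bands run from the 25th to the 75th and from the 10th to the 90th percentile of each class, and coloured points are the ribosomal protein genes. The subunit genes lie to the right of the median of the last class and above it, except RPLP1, and RPS19BP1 lies below the line.

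The size of the difference depended on how the arrays were scaled. Scalings that apply one factor per array shift all features alike and kept the median of the 45 genes at 0.28 above that of all features. This held for the 75th percentile, the array median, the authors' values and no scaling. Quantile normalisation, which gives all arrays the same distribution, left a median of 0.11 with 41 genes above 0 and 0 past the threshold. That median was 0.05 above the median of all features, which 31 of the 45 genes exceeded. With normexp background correction before it, the median was 0.08 above that of all features, and 2 genes passed. Cyclic loess, which removes trends with brightness and was tried after seeing the data, left 0.13 with 42 above 0 and 0 past the threshold, at 0.12 above the median of all features. RPL36 was below 0 under both, and RPLP1 was at 0 under quantile normalisation and at -0.15 under cyclic loess. With the replicate block RPL37A and RPL7 passed under quantile normalisation and RPL37A alone under cyclic loess.

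**Figure D5:**
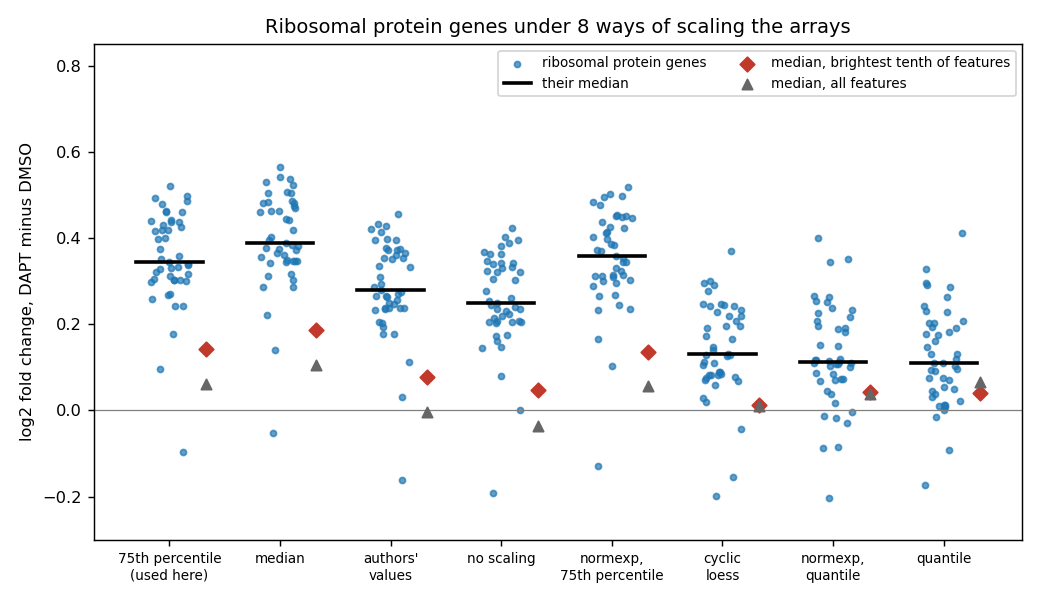
Difference of each ribosomal protein gene (y axis, log2 fold change, 1 point per gene) under 8 ways of scaling the 4 arrays (x axis), with bars for their median, red diamonds for the median of the brightest 10% of features and grey triangles for the median of all features. The median of the genes falls from 0.34 with the 75th percentile to 0.13 with cyclic loess and 0.11 with quantile normalisation.

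The paralogues left out by their names included a larger change than that of any of the 45 genes. RPL22L1, the paralogue of RPL22 that can take its place in the ribosome, was at 3.05 and 2.98 in DMSO and at 3.91 and 3.81 in DAPT. Both DAPT arrays lay far above both DMSO arrays, the difference was 0.84 ± 0.11 (limma adjusted p = 0.00956), and its 3 probes lay between 0.83 and 0.85. RPS27L, the paralogue of RPS27 that p53 induces in human cells, also rose, from 2.54 and 2.42 in DMSO to 2.92 and 3.04 in DAPT, by 0.50 ± 0.11 (limma adjusted p = 0.0402). RPL39L differed by 0.43 and RPL26L1 by 0.42, in the range of the subunit genes, and neither passed without the block. The RefSeq table lists RPL39 and RPL26 among their synonyms, so in the chicken these entries may stand for the genes of those names. RPL7L1 was at a difference of 0.04 and RPL3L, a muscle form of RPL3 in mammals, at -0.16. In total 2 of these 6 paralogues rose and 0 fell, where 12.4% of all features and 14.5% of the brightest 10% passed as higher.

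Other genes tied to ribosomes and their production also lay mostly above 0, as did 56.9% of all features and 67.1% of the brightest 10%. The shares that passed as higher in the lists of mitochondrial ribosomal proteins and ribosome biogenesis were below the 12.4% of all features, and with only a few genes called in each list nothing is read from these counts. Of the subunit proteins with other symbols RACK1, a scaffold protein on the small subunit, differed by 0.53 ± 0.16 (limma adjusted p = 0.0787, 0.0188 with the block). Of 36 mitochondrial ribosomal protein genes 3 rose and 0 fell, with a median of 0.21 and 34 above 0. These 3 were MRPS17 (0.57), MRPL28 (0.47) and MRPS25 (0.43). With the replicate block 12 rose, where 21.2% of all features were higher. The mitochondrial ribosome is a separate set of proteins that serves only the organelle's own mRNAs.

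Of 39 tested ribosome biogenesis genes 2 rose and 0 fell, with a median of 0.16 and 29 above 0, and 11 rose with the replicate block. The 2 were NOC4L (0.72), which acts in small subunit assembly, and DDX10 (0.48), a helicase of the nucleolus. Of 20 listed genes with TOP mRNAs that encode no ribosomal protein 10 were tested. Of these 2 rose and 0 fell, with a median of 0.31 and all 10 above 0, and 5 rose with the block. Among the 5 was EEF1B2, a dim probe at a mean level of -7.65 and well above background on only 3 arrays. It differed by 1.34 ± 1.01 (limma adjusted p = 0.4 without the block and 0.0221 with it). PABPC1, the cytoplasmic poly(A)-binding protein, differed by 1.15 ± 0.14 and EIF3L, a subunit of an initiation factor, by 0.69 ± 0.12, the former from 5.08 and 5.37 in DMSO to 6.39 and 6.38 in DAPT. Of 10 tested genes of the mTORC1 and MYC axis 2 rose and 0 fell, and with the replicate block 4 rose and 1 fell. The one that fell with the block was MXD1, an antagonist of MYC, at -0.42 (limma adjusted p = 0.0228 with the block and 0.051 without). Its 3 probes lay between -0.42 and -0.08. MXI1, another antagonist of MYC, went the other way, by 0.35 (limma adjusted p = 0.0377 with the block and 0.072 without). MXD4 differed by -0.008. DEPTOR, an inhibitor of mTOR, rose by 2.07 ± 0.10 and LAMTOR5, part of the complex that holds mTORC1 at the lysosome, by 0.56 ± 0.11. MYC, a driver of ribosome production, was at -1.13 and -0.78 in DMSO and at -0.73 and -0.56 in DAPT, and its difference of 0.31 ± 0.16 did not pass (limma adjusted p = 0.245). RPS6KB1, an S6 kinase gene, differed by 0.02. Over all features 12.4% were higher and 13.1% lower without the block, and 21.2% and 18.6% with it. All adjusted p-values in these lists are from the same limma fit, or from the fit with the block where stated.

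Of the genes listed for the labelled tissue, 15 of 24 photoreceptor, 16 of 28 retinal neuron and 8 of 14 Müller glia genes were tested. Only genes well above background on both arrays of a group were tested, so the detection of these follows from the filter. The others had no probe under a gene name or are given below as not above background. Marker genes of several cell types and of proliferation also differed between the groups, some lists upward and others downward. Over all features 12.4% passed as higher and 13.1% as lower. Of 21 tested proliferation genes 18 rose and 1 fell, and their summed signal, in units of the 75th percentile, was 41.5 to 43.9 in DMSO and 71.8 to 73.7 in DAPT. Of 18 lens genes 16 rose and 0 fell, and the sum went from between 19.7 and 24.6 to between 665 and 703. Among the 16 was SOX1, which was well above background on only 2 arrays and so passed the filter through a single group. Of 16 fibroblast and mesenchyme genes 0 rose and 15 fell, with sums of 408 to 512 in DMSO and 83.7 to 86.7 in DAPT. The remaining gene, TAGLN, was higher by 0.88 ± 0.23 (limma adjusted p = 0.0581, 0.0173 with the block). At 4.99 and 5.09 on the log2 scale in DAPT, TAGLN made up a large part of the DAPT sum. DCN and TWIST2 were not well above background on both arrays of either group, which is meant below by not above background. Of 15 photoreceptor genes 0 rose and 12 fell, from 30.8 to 34.1 down to 13.6 to 14.9, and GNAT1 was not above background.

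Of 16 retinal neuron genes 3 rose and 8 fell, with sums of 96.9 to 119 in DMSO and 93.4 to 100.3 in DAPT. Of 8 Müller glia genes 3 rose and 3 fell, with sums of 213 to 228 and 311 to 328, and HES5 was not above background. Most of the Müller glia sum was VIM, by far the brightest of the 8. VIM did not pass (0.37, limma adjusted p = 0.0616, 0.0335 with the block). CA2, the next brightest, was among the 3 that rose. The 3 that fell, SOX8, SOX9 and AQP4, were far dimmer than VIM and CA2, so the sum does not reflect their fall. Of 8 pigment epithelium genes 6 rose and 0 fell, with sums of 9.20 to 11.7 and 14.1 to 14.6, and RPE65 was not above background. This sum mostly follows OTX2, by far the brightest of the 8, which did not pass (0.35, limma adjusted p = 0.175). The 6 that rose were dim, and TYR among them was well above background on only 3 arrays. Of 7 genes of the erythroid list 0 rose and 1 fell, with HBE1 and HBZ not above background. The 1 that fell was ALAS1 (-0.44, limma adjusted p = 0.0455), reached through its synonym ALAS2, so it is not read as an erythroid change. The globin genes and SLC4A1 did not pass. Of 6 microglia and macrophage genes 1 rose and 1 fell, with SPI1 not above background. The 1 that fell, TREM2, was well above background on only 2 arrays and so passed the filter through a single group. Beside the 12.4% of all features that passed as higher and the 13.1% as lower, nothing is read from the small erythroid and microglia counts. The part of these cell types and of proliferation in the difference of the ribosomal protein genes was not tested.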

How the data were processed

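Spot intensities were deposited as extracted with Agilent Feature Extraction 11.5.1.1, per the file headers, with RNA input of 100 ng per the labels' protocols. The processed signal, a linear intensity after background subtraction, was used with the deposited outlier, saturation and background flags. The authors' deposited value table was an alternative, and the basis of its factor per array is not given in the sources used here.

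Controls and outlier spots were dropped, spots of a probe averaged, and log2 signals set relative to the 75th percentile of their array. Of 43603 probes, 11935 were named through RefSeq's GRCg7b table, used for names only. Features were the brightest probe of each of 5382 named genes and every unnamed probe, 37050 in all. Several unnamed probes may belong to 1 gene. Of these features, the 32291 that both arrays of a group showed well above background entered limma 3.58.1 (lmFit and eBayes, R 4.3.3). They included 5110 named genes. Adjustment was Benjamini-Hochberg over all 32291 features, threshold 0.05. All 45 ribosomal protein genes passed that filter on all 4 arrays. The fit had no block, since the labels state no pairing. The file headers give the slide, which coincides with the replicate number, and replicate deviations correlated at 0.58 between groups over features, so blocked values stand beside it. The fit was tested on simulated data. Normexp ran on median signals.

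The naming rule took genes that passed, the 5 highest and 5 lowest differences, the 3 brightest and 3 dimmest probes and, in other lists, up to 4 genes that passed. Other members are given by role, and some genes are counted in the totals but not reported here one by one. RPL39L, RPL26L1, RPL7L1, RPL3L, RACK1, MYC, MXD1, MXI1, MXD4 and RPS6KB1 were named after their values were seen. The members and lists were chosen with earlier results of these data known.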

Additional observations from a re-analysis of the deposited data

How the results depend on the processing

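The median difference of the 45 genes was above 0 under every alternative run, and the count called lower was 0 in each alternative with a test. The values within a slide carry no test. Changes to the filter, the prior, the slide block or the fold rule leave the differences of these genes as they were. Their median of 0.34 was thus fixed in those runs. Scaling by one factor per array moves the median of all features as far as that of these genes. The median was 0.34 in the fit as reported. It was 0.11 with quantile normalisation, 0.11 with normexp and quantile normalisation and 0.13 with cyclic loess. With the slide as a replicate block as well, the median stayed at 0.11 for quantile normalisation and 0.13 for cyclic loess. Cyclic loess, no scaling and these combinations with the block were chosen after seeing the data. Leaving out each array in turn gave medians between 0.30 and 0.43. The median of all features was 0.06 as reported, 0.11 with the array median and -0.04 with no scaling. The count called higher, 6 as reported, was 30 with the slide as a replicate block, 26 with a trended robust prior and 15 with normexp and the 75th percentile. It was 2 with normexp and quantile normalisation, 2 with quantile normalisation and the replicate block, and 1 with cyclic loess and the block. It was 1 with the authors' values, 1 without a filter on dim probes, and 0 with quantile normalisation, with cyclic loess, with no scaling, with a 1.5-fold change as well and without any one array (range 0 to 0). Without an array, a lone sample is assumed to vary like the other group. At an unadjusted p under 0.05, 3 genes were higher with quantile normalisation, 3 with cyclic loess and 17 with no scaling. Some genes changed sign. With quantile normalisation, with or without the replicate block, RPS29 was at -0.0163 and RPL36 at -0.0916. With normexp and quantile normalisation RPL9 was at -0.0123, RPL27A at -0.00267, RPS29 at -0.0291, RPL27 at -0.0186, RPL36 at -0.0860 and RPLP1 at -0.0878. With cyclic loess, with or without the block, RPL36 was at -0.0428 and RPLP1 at -0.15. With no scaling RPLP1 was at -4.07e-05. The cause of these changes was not tested. Under the replicate block no called gene was lost. With 2 arrays per group, the smallest two-sided p of an exact permutation test is 0.333.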
